A study of Oryza longistaminata with 15 samples.

Results

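The genes described here encode 3 families of enzymes that modify small molecules, together with 2 genes of a related sugar nucleotide enzyme, in the wild rice *O. longistaminata*. The members were the 46 probe sets, of 57194 rice probe sets on the array, that stand in one of the study's lists of tissue-enriched genes or of genes differing between the tips and whose annotation holds the words cytochrome P450, UDP-gluc, glucosyltransferase, glycosyltransferase or glutathione S-transferase. The 6 lists searched held 2663 probe sets. The members stand for 45 loci: 19 probe sets were annotated as cytochromes P450, 14 as glycosyltransferases, 11 as glutathione S-transferases (GSTs) and 2 as UDP-glucose 4-epimerase, which shares the word UDP-gluc but is not a transferase. The list of genes enriched in young leaf held 34 of them, the lists for the tips 11, and the list for shoot internodes 2, with 3 members in 2 lists. The lists for rhizome internodes (61 probe sets) and for shoot tips (299) held 0 members.

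RNA of 5 tissues of wild-type plants at the active tillering stage was measured, with 3 biological replicates per tissue on 15 Affymetrix rice arrays. The tissues were rhizome tip (RT, the distal 1 cm), rhizome internode (RI), shoot tip (ST, the distal 5 mm without leaves), shoot internode (SI) and young leaf (YL), with 5 µg of total RNA labelled per sample. No treatment or allele distinguished the groups. The accession is described as a greenhouse plant maintained singly, while the sample records speak of individual plants, so p-values measure the spread between these samples, which may be less than that between plants.

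Cytochromes P450 are haem enzymes that insert oxygen into hormones, pigments, defence compounds and foreign chemicals. UDP-glycosyltransferases then often attach a sugar from a UDP-sugar to such molecules, which makes them more soluble and, for many hormones, inactive or storable. GSTs conjugate the tripeptide glutathione to reactive compounds, or carry them, and are best known in plants for herbicide detoxification and stress responses. All 3 families are large in grasses, and their members are often expressed in one organ.

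Signals are linear intensities that had been scaled over all arrays before deposit, with array medians from 21.9 to 23.6. A signal of 49.6, the 95th percentile of 64 reporter control probe sets that match no rice gene, served as the detection cutoff, and 17943 to 18834 rice probe sets per array exceeded it. Expression in a tissue required a signal above it in all 3 replicates, which 21303 probe sets reached somewhere and among them all 46 members, and these were tested. Differences are on the log2 scale, with the standard error (SE) of a limma fit over all 15 arrays, and were called at a Benjamini-Hochberg adjusted p under 0.05 and over 2-fold. The probes were designed on cultivated rice, so a mismatch with *O. longistaminata* can lower a signal, and signals were compared between tissues within a probe set only. Lower RNA per cell and fewer cells of a type cannot be told apart in whole tissue.

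Arrays of both tips and of both internodes stood apart from their names in part. All 58 probe sets of the study's rhizome tip list were highest on the arrays whose sample records say shoot tip, and all 299 of its shoot tip list were highest on the arrays whose records say rhizome tip, while the lists for RI, SI and YL peaked under their own names. The tip arrays are therefore called RT-labelled and ST-labelled after the records, and a result between them holds for those labels only. Among the internodes, RI replicates 1 and 3 correlated with SI replicate 1 at 0.883 or more, and RI replicate 2 with SI replicates 2 and 3 at 0.926 or more, while correlations across these 2 sets ran from 0.787 to 0.929, so results on internodes are also given without RI replicate 2 and SI replicate 1. Markers of green tissue were 35 chlorophyll-binding and photosystem probe sets of the study's YL list. That list rested on the YL signal on these arrays, so the high YL signals of the markers were set by choice. All exceeded the cutoff in YL, 32 to 34 in SI, 19 to 28 in RI, 23 to 26 on the RT-labelled and 12 to 14 on the ST-labelled arrays. OSH1, a homeobox gene of shoot meristems, gave signals of 705 to 2030 on the tip and internode arrays and 5.20 to 11.1 in YL, below the cutoff. A CEN-like gene of meristems gave 420.1 to 458 on the ST-labelled arrays and 22.3 to 80.6 on the RT-labelled ones, and granule-bound starch synthase gave 126 to 236 in RI, 38.2 to 119 in SI and less than the cutoff in tips and YL.

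**Figure D1:**
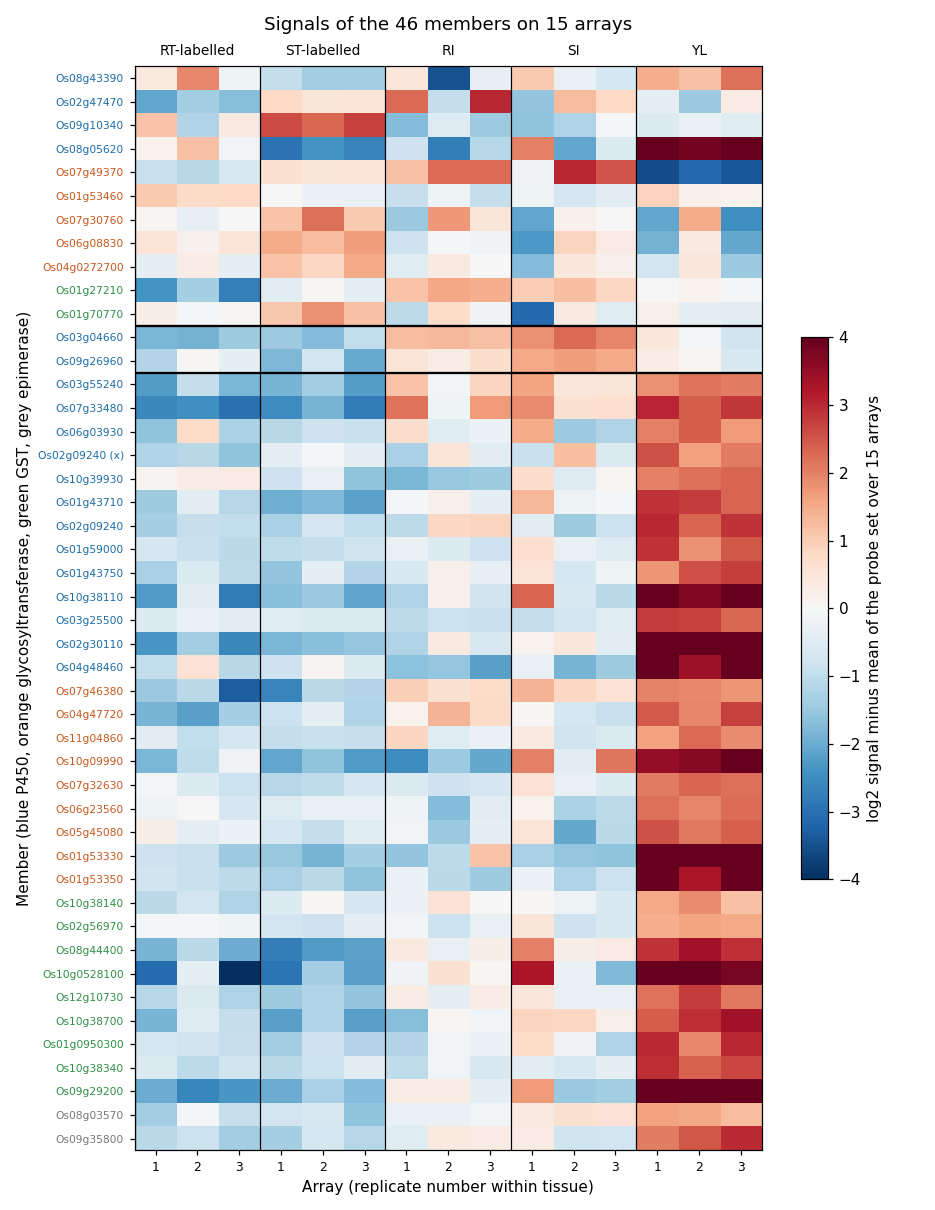
Log2 signal of each of the 46 members on each of the 15 arrays, minus the mean of the probe set over all arrays, with colours clipped at 4 either way. Rows are grouped by list (tips above, SI in the middle, YL below, with the 1 member of both the tip and YL lists, *Os08g05620*, among the tips), and the YL columns of all 34 members listed for YL lie above their other columns.

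Membership in the YL list was set by the YL signal, so the leaf values are a description. In all 34 members listed for YL, each of the 3 YL arrays exceeded each of the 12 other arrays. The ratio of the YL mean over the next highest tissue mean was taken against the cutoff for a tissue with no array above it, and it is given as "at least" for the 12 members whose smallest ratio came from such a tissue. With those 12 at their bound the median ratio was 3.78, with medians of 4.14 in the 14 P450s (4 at their bound), 4.43 in the 9 glycosyltransferases (4) and 3.08 in the 9 GSTs (3). Outside YL the members were mostly faint: 14 were expressed in YL only, and 6 were expressed in all 5 tissues. By means not bounded by the cutoff, the next highest tissue was SI for 20 members, RI for 8, the RT-labelled tips for 6 and the ST-labelled tips for 0. This order includes tissues with no array above the cutoff, such as SI for *Os01g53350* (42.6, 21.6 and 27.6). In some members SI led through replicate 1 alone, as in *Os10g0528100* (762, 65.5 and 23.1 in SI and 71.6, 120 and 82.2 in RI). Expressed members numbered 15 in SI, 15 in RI, 10 in the RT-labelled tips and 9 in the ST-labelled tips.

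Among the P450s, *Os04g48460* was at least 12.5-fold brighter in YL than in any other tissue. Its YL signals were 755, 436 and 719, against 21, 62.6 and 19.4 on the RT-labelled arrays and at most 45.2 on all other arrays, so that RT-labelled replicate 2 was its only array outside YL above the cutoff. *Os02g30110* reached 3609, 2950.4 and 3244 in YL, with 188, 228 and 129 in SI and 74.4, 219.8 and 109.7 in RI, a ratio of 18. Both are annotated by family only, and both were read by probe sets that can cross-hybridize. *Os03g25500*, annotated as CYP72A1 and read by a probe set of the same type, gave 81.7, 77.1 and 57.7 in YL. It gave 9.76 or less on every other array, a ratio of at least 1.44. A second CYP72A1, *Os01g43710*, was bright, with YL signals of 2205, 2053 and 1496, SI signals of 751, 259 and 291 and a ratio of 4.42. CYP72A1 is known in periwinkle as secologanin synthase, an enzyme of terpenoid alkaloid synthesis. The near neighbour of *Os01g43710* by locus number, the P450 *Os01g43750*, gave 173, 303 and 349.5 in YL and 74.5, 31.2 and 45.1 in SI (a ratio of at least 5.31), and its highest YL array, replicate 3, was the lowest of the other gene. The P450 nearest to the lower end was *Os03g55240*, with 2129, 2708 and 2499 in YL and 1790.5, 816 and 845 in SI.

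Among the glycosyltransferases, the neighbours *Os01g53350* and *Os01g53330* were at least 15.1-fold and at least 16.2-fold brighter in YL. Both are annotated as UDP-glucosyl transferases, a family that glucosylates small molecules. *Os01g53350* gave 1063, 478 and 821 in YL and at most 42.6 elsewhere, and *Os01g53330* gave 927, 614 and 912 in YL and 73.4 on RI replicate 3, its only other array above the cutoff. In both, YL replicate 2 was the lowest of the 3 YL arrays. A further family member close by, *Os01g53460*, did not share this pattern and was listed for the tips. *Os05g45080*, also a UDP-glucosyl transferase, was expressed in every tissue, with 1462, 1094 and 1334 in YL, 294, 194 and 217 on the RT-labelled arrays and 369.6, 61.4 and 118 in SI (ratio 5.52). The smallest ratio among the 22 members with a ratio that is not such a bound, 1.93, belonged to *Os07g46380*, a glycosyltransferase with 696, 662 and 601 in YL and 447, 309 and 261 in SI. The lists asked for a YL mean over 1.5-fold above each other tissue, and probe sets of these families that missed it were not analysed here.

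The YL members annotated as acting on hormones were 3 glucosyltransferases. *Os10g09990*, annotated as cytokinin-O-glucosyltransferase 3, gave 739.7, 811 and 1106 in YL, and *Os04g47720*, annotated as cis-zeatin O-glucosyltransferase 1, gave 314, 224 and 384. O-glucosylation stores cytokinins in an inactive form from which the hormone can be released. *Os11g04860*, annotated as indole-3-acetate beta-glucosyltransferase, which joins glucose to auxin, gave only 76.7, 123 and 94.6 in YL and stayed below the cutoff on all other arrays, a ratio of at least 1.94.

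Among the GSTs, *Os09g29200* had a ratio of 14.7, with YL signals of 1838, 1612 and 2172 and SI signals of 311, 34.1 and 36.2. *Os10g38340*, annotated as GSTU6 of the plant-specific tau class, gave 187, 123 and 154 in YL and at most 22.2 elsewhere, a ratio of at least 3.07. Its probe set can cross-hybridize. *Os01g0950300*, annotated as GST 29, gave 144, 69.5 and 149 in YL and was below the cutoff elsewhere (ratio of at least 2.30). Neither of these 2 GSTs exceeded the cutoff outside YL. The lowest ratio among the 6 GSTs with a ratio that is not a bound was 2.66 for *Os10g38140*, which gave 270.2, 348 and 215 in YL and 80.3, 140.3 and 92.4 in RI. The UDP-glucose 4-epimerases, which interconvert UDP-glucose and UDP-galactose, differed in how many tissues they reached. *Os08g03570* was expressed in all tissues, at 1077, 1029.5 and 850.4 in YL and 445, 537 and 528 in SI (ratio 1.96), whereas *Os09g35800* was expressed in YL only, at 98.6, 134 and 189.7 (ratio of at least 2.74).

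Tips were then compared with internodes for the 33 members listed for YL and not for the tips. The YL signal did not choose this comparison, although the screen behind the lists used all 15 arrays. The 14 members expressed in YL only passed the filter for testing through that signal. The mean of the RT-labelled and ST-labelled arrays was below that of RI and SI in 28 of the 33, and 14 fell past the threshold in tips, 1 rose and 18 were not called. That is 45.5% of the members, against 31.4% of all 21303 probe sets called in this comparison (15.8% higher in tips and 15.6% lower), and 22 members had an unadjusted p under 0.05. Of the called members, *Os10g38700*, *Os10g09990* and *Os04g48460* were expressed in YL only, so the share includes members tested through YL alone. With signals under the cutoff set to it, 9 were called, all lower in tips, 27.3% beside 25.2% of all probe sets called in either direction. These shares lie near each other, but the share of all probe sets lower in tips was not taken for that setting. Without RI replicate 2 and SI replicate 1 the count was 13, or 39.4% beside 32.7%, and *Os10g38110* (limma adjusted p = 0.0808) and *Os10g09990* (0.181) lost their calls. The median difference of the members was −0.69, against −0.01 over all probe sets tested, and −0.23 for the members when signals under the cutoff were set to it. Lower in tips were 5 of 13 P450s, 3 of 9 glycosyltransferases, 5 of 9 GSTs and 1 of 2 epimerases. Of the 14 lower members, 9 had all 6 internode arrays above the cutoff, 4 had some, and 1 had none, namely the tau-class GST *Os10g38700*, called on signals below the cutoff on all 12 arrays, so that no difference was measured. All 6 tip arrays lay below all 6 internode arrays in 7 of the 33 members, 21.2%, beside 11.5% of all probe sets tested.

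**Figure D2:**
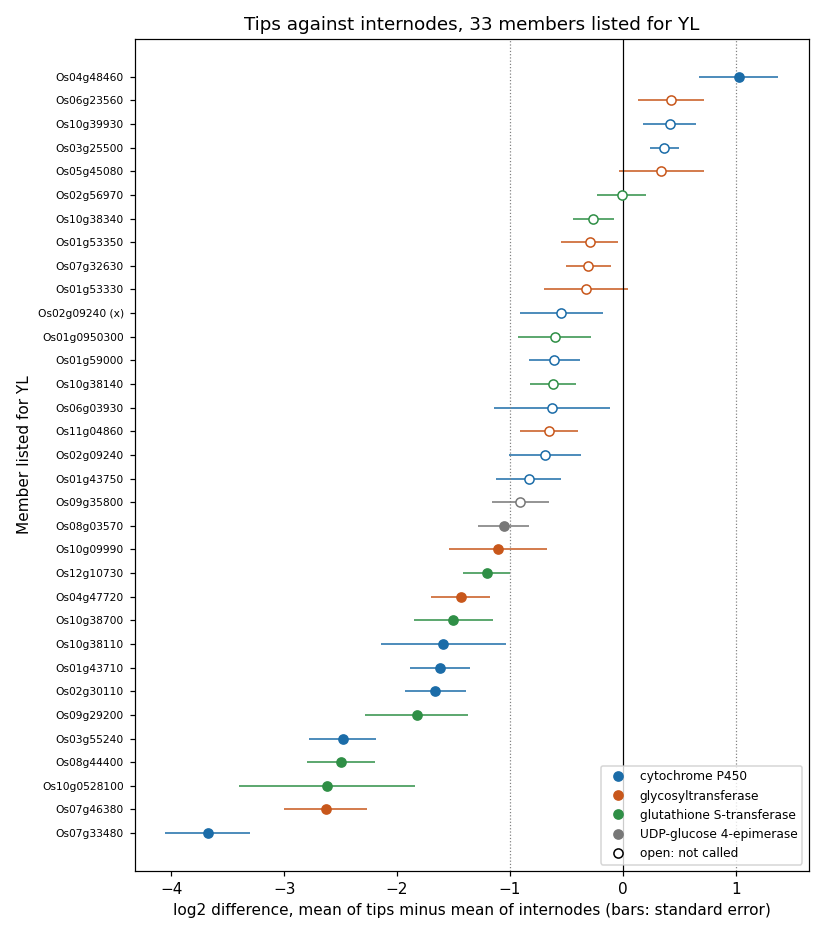
Log2 difference of tips minus internodes with its SE for the 33 members listed for YL, by family, with filled points for called members and dotted lines at 2-fold. The 14 called below zero include members of every family, and *Os04g48460* alone was called above it.

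The P450 *Os07g33480* was below the cutoff on every tip array. Its lowest, median and highest signals were 15.3, 21 and 33.6 over the 6 tip arrays and 107, 293 and 552 over the 6 internode arrays, with no overlap, and YL gave 1002, 649 and 856. The fall was at least 5.43-fold (log2 difference -3.68 ± 0.38, limma adjusted p = 6.59e-06). The P450 *Os03g55240* was expressed in both organs, at 127, 166 and 311 in tips and 559, 968 and 1790.5 in internodes (lowest, median and highest), a difference of -2.48 ± 0.30 (limma adjusted p = 2.22e-05). *Os02g30110* and the CYP72A1 *Os01g43710* fell by less, with differences of -1.66 ± 0.27 and -1.62 ± 0.27, and their tip and internode arrays did not overlap either. The P450 *Os10g38110* ranged from 33.2 to 169.9 in tips and from 98.3 to 1141 in internodes (-1.59 ± 0.55, limma adjusted p = 0.029), and lost its call without RT-labelled replicate 1 (adjusted p = 0.0622), RT-labelled replicate 3 (0.0724), ST-labelled replicate 3 (0.0615) or RI replicate 2 (0.0663).

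The glycosyltransferase *Os07g46380* gave a lowest, median and highest signal of 17.8, 70.2 and 83.7 in tips and 261, 301 and 447 in internodes, without overlap (-2.63 ± 0.37, limma adjusted p = 7.68e-05). For the cis-zeatin O-glucosyltransferase *Os04g47720* the values were 12.9, 23.4 and 43.7 in tips, all below the cutoff, and 31, 62.1 and 148 in internodes, where the groups overlapped. Its fall was at least 1.27-fold (-1.44 ± 0.26, limma adjusted p = 0.000583), and −0.53 and so under 2-fold with signals under the cutoff set to it. The cytokinin-O-glucosyltransferase *Os10g09990* passed narrowly (-1.11 ± 0.43, limma adjusted p = 0.047), with RI arrays no higher than the tip arrays, and the call was lost without any of 12 arrays taken singly, the adjusted p then reaching 0.113 without SI replicate 3, and also with signals under the cutoff set to it (0.0827).

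Among GSTs, *Os08g44400* had a lowest, median and highest signal of 25.1, 41.4 and 81.7 in tips and 139, 213 and 686 in internodes, without overlap (-2.49 ± 0.30, limma adjusted p = 2.51e-05). *Os10g0528100*, annotated as GST 42, gave 4.72, 14 and 61.1 in tips and 23.1, 76.9 and 762 in internodes, an overlapping pair with a wide error (-2.62 ± 0.78, limma adjusted p = 0.0132), and was not called with signals under the cutoff set to it (−1.10, limma adjusted p = 0.102). *Os09g29200* was below the cutoff on every tip array and fell by at least 1.72-fold (-1.83 ± 0.46, limma adjusted p = 0.00493), a call likewise lost (−0.95, limma adjusted p = 0.0553). *Os12g10730* fell less (-1.20 ± 0.21) but without overlap. The epimerase *Os08g03570* fell just past the threshold (-1.05 ± 0.23, limma adjusted p = 0.00185) and was under 2-fold without RT-labelled replicate 1 (-0.91) or ST-labelled replicate 3 (-0.91).

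The 1 member called higher in tips was the P450 *Os04g48460* (1.03 ± 0.35, limma adjusted p = 0.0254). With its tip signals of 19.4, 25.8 and 62.6 and internode signals of 9.3, 13.8 and 34.2 (lowest, median and highest), only RT-labelled replicate 2 exceeded the cutoff. The call was lost without that array (limma adjusted p = 0.0548), ST-labelled replicate 2 (0.0629), RI replicate 3 (0.0612), SI replicate 2 (0.0638) or SI replicate 3 (0.0527), and with signals under the cutoff set to it the difference was 0.06 (limma adjusted p = 0.764). The largest differences above zero that were not called were 0.43 ± 0.29 for the UDP-glucosyl transferase *Os06g23560* and 0.42 ± 0.23 for the P450 *Os10g39930*. The mean log2 signal of the green markers also differed between these organs. It was 7.13 to 7.24 on the RT-labelled, 5.23 to 5.63 on the ST-labelled, 6.20 to 7.33 on the RI and 9.14 to 10.3 on the SI arrays. Its part in the difference between tips and internodes was not tested.

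Rhizome and shoot internodes were compared for the 44 members not listed for SI. Of these, 2 were lower in RI, 0 were higher by limma and 42 were not called, while 6 had an unadjusted p under 0.05. The share of 4.55% stands beside 1.9% of all probe sets called, of which 1.56% were lower and 0.338% higher in RI. The cytokinin-O-glucosyltransferase *Os10g09990* gave 11.5, 23.9 and 15.7 in RI and 264, 48 and 287 in SI. Its SI arrays all lay above its RI arrays, with replicate 2 of SI far below the others and just under the cutoff, and the difference was at least 3.1-fold (-3.24 ± 0.61, limma adjusted p = 0.0147). The P450 *Os10g39930*, annotated by family only, gave 26, 32.3 and 34.4 in RI and 149.9, 64.9 and 97.5 in SI, again without overlap, and was at least 1.98-fold higher in SI (-1.68 ± 0.33, limma adjusted p = 0.0193). Both calls were lost without RI replicate 1, RI replicate 3 or SI replicate 3, with adjusted p of 0.0631, 0.0604 and 0.0619 for *Os10g09990* and 0.079, 0.0577 and 0.0602 for *Os10g39930*. Both were also lost with signals under the cutoff set to it, where 0 members were called by limma beside 1.65% of all probe sets (adjusted p = 0.161 for *Os10g09990* and 0.0875 for *Os10g39930*). With only the 6 internode arrays in the limma fit, 0 were called beside 0.582% (adjusted p = 0.245 and 0.182).

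The cis-zeatin O-glucosyltransferase *Os04g47720* ran the other way without passing, at 64, 148 and 97.7 in RI and 60.2, 35.3 and 31 in SI (1.27 ± 0.37, limma adjusted p = 0.134). Every RI array lay above every SI array in this member. Without SI replicate 1, 4 members were called, 9.09% beside 3.87% of all probe sets, *Os04g47720* and the GST *Os09g29200* higher in RI and the same pair as before lower. Without RI replicate 1 the only call was *Os02g09240*, a P450, higher in RI, beside 1.57% of all probe sets. Its RI and SI signals on the probe set called were all below the cutoff, so no difference was measured. The second probe set of this gene was not called, and with all arrays it gave -0.33 ± 0.52 (limma adjusted p = 0.919). Without both RI replicate 2 and SI replicate 1, 6 members were called, 13.6% beside 10.5% of all probe sets: *Os09g29200*, *Os04g47720*, the UDP-glucosyl transferase *Os05g45080* and the P450 *Os07g33480* were higher in RI, and *Os10g09990* and *Os10g39930* lower.

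The difference of RT-labelled minus ST-labelled arrays was set against that of RI minus SI, within the limma fit, for the 33 members listed for YL only. The 2 differences were unequal for 3, beside 2.99% of all probe sets, and 8 had an unadjusted p under 0.05. Among these was *Os10g39930*, which was higher on the RT-labelled than on the ST-labelled arrays and lower in RI than in SI. The others were both cytokinin glucosyltransferases, whose values had opposite signs. In tips, *Os04g47720* was below the cutoff on every array, and *Os10g09990* exceeded it on RT-labelled replicate 3 only (59.3). Neither glucosyltransferase was thus expressed in either tip. All 3 stayed called without RI replicate 2 and SI replicate 1, while with signals under the cutoff set to it *Os04g47720* (limma adjusted p = 0.278) and *Os10g09990* (0.25) lost the call and *Os10g39930* kept it (0.0134). With the names of the tip arrays exchanged, 0 of the 33 members were called by limma, beside 0.103% of all probe sets. The study's tip lists peaked under the exchanged names, so the 3 calls are not read as a difference between rhizome and shoot.

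**Figure D3:**
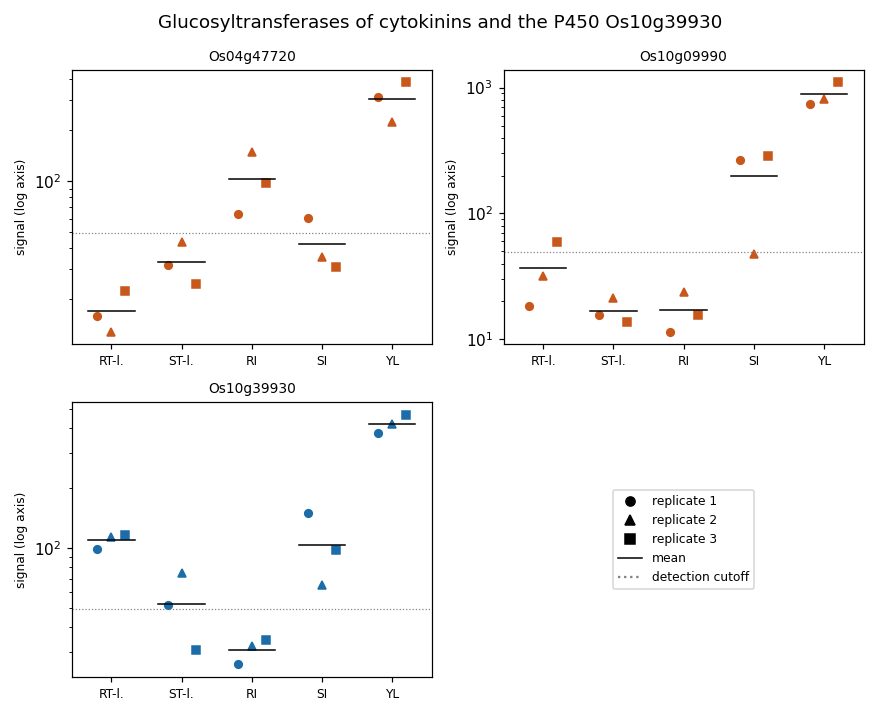
Signals on a log axis of the cis-zeatin O-glucosyltransferase *Os04g47720*, the cytokinin-O-glucosyltransferase *Os10g09990* and the P450 *Os10g39930* by tissue (RT-l. and ST-l., RT-labelled and ST-labelled), with replicates as points, means as bars and the detection cutoff of 49.6 as a dotted line. RI lies above SI in the first and below it in the other panels.

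Between the tips, the 35 members listed for YL or SI and not for the tips gave 0 calls by limma, while 5 had an unadjusted p under 0.05 and 0.864% of all probe sets were called. Differences of over 2-fold, not called, were 1.16 ± 0.33 for the P450 *Os10g39930* (99.1, 114 and 116 on the RT-labelled and 51.8, 74.6 and 30.6 on the ST-labelled arrays, limma adjusted p = 0.188) and, among members above the cutoff on every tip array, 1.03 ± 0.37 for the P450 *Os09g26960* (499, 1160.0 and 863 and 318, 674 and 274, limma adjusted p = 0.344). The arrays of *Os10g39930* did not overlap between the tips. The cis-zeatin O-glucosyltransferase *Os04g47720* gave 15.9, 12.9 and 22.2 on the RT-labelled and 31.9, 43.7 and 24.6 on the ST-labelled arrays, all below the cutoff, so no difference is given.

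The 11 members listed for the tips were chosen on the difference between the tips, which is therefore given without a test. For *Os04g0272700*, *Os06g08830* and *Os09g10340*, the rhizome tip list also asked for a mean over 1.5-fold above RI, SI and YL. Their lower signals there were therefore set by choice. The ST-labelled arrays were the brighter for 8 of the 11 members and the RT-labelled arrays for 3. The ratio of the brighter over the dimmer tip mean ran from 2.05 to 4.89 in 10 of them and was at least 3.05 in *Os08g05620*, above the 2-fold minimum of the main tip list. Of the 8, 4 were glycosyltransferases, 2 P450s and 2 GSTs. The P450 *Os09g10340* was the most restricted, at 143, 114 and 157 on the ST-labelled arrays, 52.1, 10.2 and 29.8 on the RT-labelled ones and 22.1 or less in internodes and YL (ratio of tips 4.50). The P450 *Os02g47470* had a ratio of 4.89, with 293, 234 and 244 on the ST-labelled and 40.1, 65.6 and 51.8 on the RT-labelled arrays, but its RI arrays spread from 86.3 to 1348. Neither carries an annotation beyond the family.

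The GSTs in this set bear names from maize, where GST III and GST IV are known for detoxifying herbicides. *Os01g27210*, annotated as GST IV, gave 622, 881 and 658 on the ST-labelled and 160.4, 337 and 128 on the RT-labelled arrays (ratio 3.45), and was still higher in RI (1862, 2462 and 2346) and SI (1690.1, 1938 and 1514). *Os01g70770*, annotated as GST III, was highest on the ST-labelled arrays, at 251, 423 and 265 against 143, 112 and 123 on the RT-labelled ones (ratio 2.48). The UDP-glucosyl transferases *Os04g0272700*, *Os06g08830* and *Os07g30760* gave 99.1, 80.2 and 129, 207, 178 and 238 and 156, 331 and 148 on the ST-labelled arrays, with ratios of 2.51, 2.09 and 3.10. Their ST-labelled arrays all exceeded their RT-labelled ones. *Os07g49370* belongs to glycosyltransferase family 43, known in *Arabidopsis* for building the xylan backbone of secondary cell walls. It gave 240.2, 219.8 and 224 on the ST-labelled and 84.3, 72.4 and 101 on the RT-labelled arrays (ratio 2.65), 349, 739 and 730.0 in RI and 141, 1267 and 895 in SI.

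The 3 members higher on the RT-labelled arrays were also present in YL. *Os08g05620*, annotated as CYP89A2, was at least 3.05-fold brighter on the RT-labelled arrays, with 126, 259 and 105 on the RT-labelled and 14.8, 21.8 and 18 on the ST-labelled arrays, all of the latter below the cutoff. It was the only member listed both for the tips and for YL, where it gave 1891, 1636 and 2160.2. *Os08g43390*, annotated as CYP78A3, gave 760.4, 2192 and 516 on the RT-labelled and 299, 224 and 223 on the ST-labelled arrays (ratio 4.65). CYP78A enzymes are known in *Arabidopsis* for promoting the growth of lateral organs. The UDP-glucosyl transferase *Os01g53460*, the member nearest to the threshold of its list, gave 111, 92.8 and 93.5 on the RT-labelled and 53.6, 45.9 and 45.1 on the ST-labelled arrays (ratio 2.05).

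**Figure D4:**
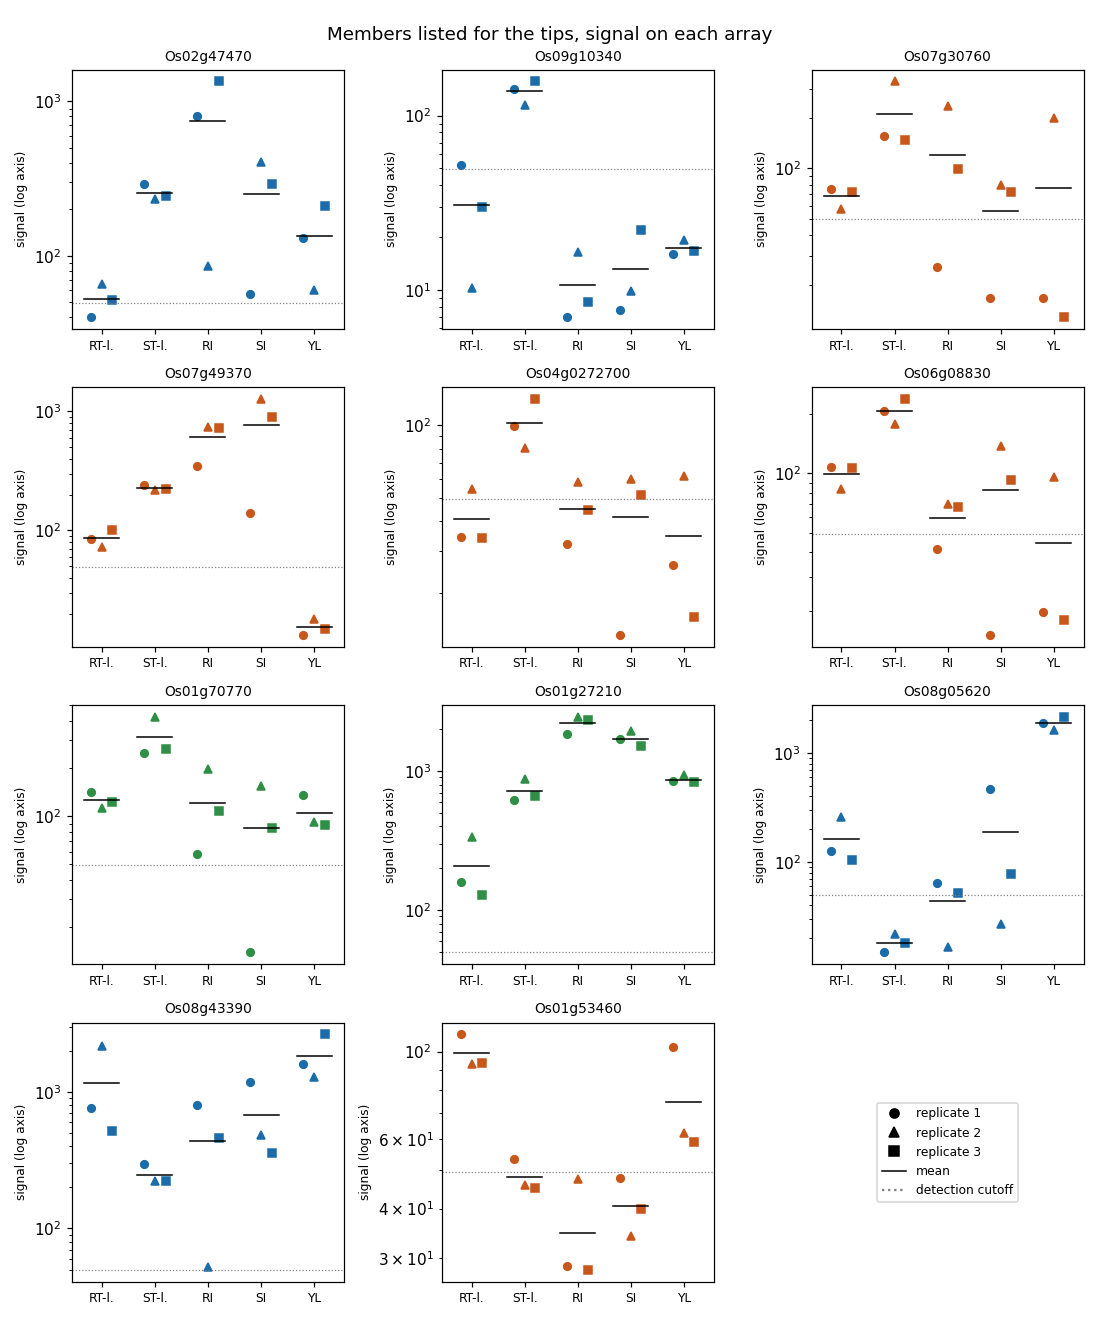
Signals on a log axis of the 11 members listed for the tips on each array (RT-l. and ST-l., RT-labelled and ST-labelled), with replicates as separate symbols, means as bars and the detection cutoff of 49.6 as a dotted line. The first 8 panels are higher on the ST-labelled and the last 3 on the RT-labelled arrays, and the replicates of SI and YL scatter widely in several panels.

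What the lists for the tips did not use is how these genes differed between internodes and YL, and 10 members could be read (all but *Os08g05620*). For 3 of these 10, the rhizome tip list had set the tip against RI, SI and YL singly. In internodes 2 were higher, 1 was lower and 7 were not called, 30% of the members beside 37.9% of all probe sets (18% higher and 19.9% lower), a share near the background. The family 43 glycosyltransferase *Os07g49370* had YL signals of 13.3, 17.9 and 14.8, all below the cutoff, and was at least 11.2-fold higher in internodes (5.19 ± 0.53, limma adjusted p = 8.23e-06). Its 6 internode arrays and its 3 YL arrays did not overlap. GST IV, *Os01g27210*, with YL signals of 843, 933 and 829, was higher in internodes by 1.16 ± 0.26 (limma adjusted p = 0.00273), also without overlap. The CYP78A3 *Os08g43390* was lower in internodes, where it gave 802, 52.3 and 461 in RI and 1192, 486 and 356 in SI against 1598, 1294 and 2648 in YL (-2.15 ± 0.74, limma adjusted p = 0.0275). This call was lost without SI replicate 3 (limma adjusted p = 0.0559), YL replicate 1 (0.0635) or YL replicate 3 (0.106), and with only the arrays of these 3 tissues in the fit (0.0608).

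*Os01g53460* differed by slightly less than 2-fold between internodes and YL (-0.97 ± 0.23, limma adjusted p = 0.00341) and is not counted. Its internode arrays were all below the cutoff. Leaving out 1 array gave 5 calls in 3 cases: without RI replicate 2 the P450 *Os02g47470* was added as higher in internodes, without SI replicate 1 the UDP-glucosyl transferase *Os06g08830*, and without YL replicate 2 the UDP-glucosyl transferase *Os07g30760*, each time together with *Os01g53460* as lower. These 5 stand beside 36.5%, 42.7% and 36.4% of all probe sets. Without RI replicate 2 and SI replicate 1 together, 6 of the 10 were called beside 41.5% of all probe sets.

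The members listed for SI were 2 P450s annotated by family only, both read by probe sets that match several transcripts by their names. *Os09g26960* was the brighter, at 3192, 3551 and 3215 in SI and 1594, 1363 and 1809 in RI, and *Os03g04660* gave 1136, 1531 and 1223 in SI and 765, 780.5 and 713 in RI. The ratios of SI over RI, which chose them, were 2.09 and 1.72, and their SI replicates lay close together. In the comparisons that the SI signal did not choose, *Os03g04660* was higher in RI than on the RT-labelled arrays (90.3, 86.5 and 118, difference of RT-labelled minus RI -2.95 ± 0.29, limma adjusted p = 1.09e-05), than on the ST-labelled arrays (-2.64 ± 0.29) and than in YL (422, 304 and 183, difference of RI minus YL 1.39 ± 0.29, limma adjusted p = 0.00187). All 3 RI arrays lay above all tip and YL arrays. *Os09g26960* was higher in RI than on the ST-labelled arrays (-2.02 ± 0.37, limma adjusted p = 0.00143), just short of 2-fold against the RT-labelled arrays (-0.99 ± 0.37, limma adjusted p = 0.0494, called without RT-labelled replicate 2) and not called against YL (0.57 ± 0.37, limma adjusted p = 0.222). In these comparisons 31.5%, 24.7% and 37.5% of all probe sets were called, for RI against the RT-labelled arrays, the ST-labelled arrays and YL. Without RI replicate 2 and SI replicate 1 the 4 calls held, with differences of −2.92, −2.62 and 1.37 for *Os03g04660* in the order above and −2.13 for *Os09g26960* on the ST-labelled arrays minus RI.

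The replicates of a tissue disagreed in a patterned way, which was looked for after the values had been seen. Among the 33 members listed for YL only, SI replicate 1 was the highest SI array in 27, or 81.8%, beside 46.1% of all probe sets tested, and exceeded both other SI arrays by over 2-fold in 13, or 39.4% beside 11%. With signals under the cutoff set to it, as in the ratios that follow, it was the highest in 18, or 54.5% beside 42.2%, and over 2-fold above both in 11, or 33.3% beside 8.94%. The GST 42 *Os10g0528100* gave 762, 65.5 and 23.1 in SI, so that replicate 1 was 13.3 times the mean of the others. The same ratio was 6.28 for the GST *Os09g29200*, 8.82 for the P450 *Os10g38110* (1141, 150.1 and 109) and 7.11 for the P450 *Os06g03930* (1593, 205 and 244). The CYP89A2 *Os08g05620*, listed for the tips and YL, behaved likewise, with 466, 27 and 78.4 and a ratio of 7.27. The green markers were also highest on that array, with a mean log2 signal of 10.3 against 9.14 and 9.59 on SI replicates 2 and 3 and 11.1 to 11.3 in YL. Their part in the pattern was not tested.

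The members listed for the tips and higher on the ST-labelled arrays went the other way. SI replicate 1 was the lowest SI array in 7 of the 8, 87.5% beside 41.5% of all probe sets tested. It was under both others by over 2-fold in 6 of them, 75% beside 14.8%. With signals under the cutoff set to it, SI replicate 1 was the lowest in 6 of the 8, 75% beside 36.4%. It was then under both others by over 2-fold in 2 of the 8, 25% beside 12.2%. The family 43 glycosyltransferase *Os07g49370* and the GST III *Os01g70770* had SI signals of 141, 1267 and 895 and 13.9, 154 and 84.9. In RI, replicate 1 was the lowest array in 7 of the 8, 87.5% beside 42.1% of all probe sets, and replicate 2 the highest in 7, 87.5% beside 42.4%. With signals under the cutoff set to it, these counts were 5 (62.5% beside 35.1%) and 6 (75% beside 36.9%). In YL, replicate 2 was the highest in 6 of the 8, 75% beside 28% of all probe sets, and over 2-fold above both others in 3, 37.5% beside 3.34%. Those 3 were the UDP-glucosyl transferases *Os07g30760* (16.8, 199.5 and 12.9), *Os06g08830* (19.9, 95.4 and 18.1) and *Os04g0272700* (26.1, 61.7 and 15.9). With signals under the cutoff set to it, YL replicate 2 was the highest in 4, 50% beside 22.5%. It was then over 2-fold above both others in 1 (*Os07g30760*), beside 2.11%. On YL replicate 2 all 35 green markers, which the YL list chose, exceeded the cutoff, with a mean log2 signal of 11.3, as on the other YL arrays.

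**Figure D5:**
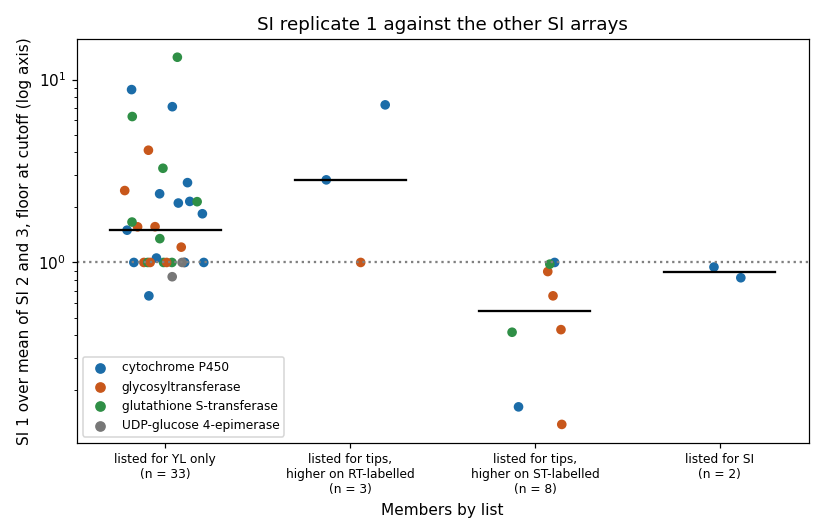
Signal on SI replicate 1 over the mean of SI replicates 2 and 3, with signals under the cutoff set to it, on a log axis, for the 46 members by list and family, with medians as bars. Most members listed for YL lie above 1, up to 13.3, and members higher on the ST-labelled tips lie at or below 1.

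Probe sets of one gene or design did not always give 1 profile. *Os02g09240*, a P450, was read by 2 probe sets, of which the first gave 161, 99.3 and 147 in YL and 14.4, 7.43 and 11 in SI, and the second, open to cross-hybridization, 254, 137 and 182 and 23.7, 101 and 29.1. Both were highest in YL, but SI replicate 2 exceeded the cutoff with the second only. The GSTU6 *Os10g38340* shared its probe design with a probe set for *Os10g0528200*, annotated as a tau-class GST and not a member, which gave 207, 131 and 194 in YL and 66.4, 39.4 and 54.4 in RI (ratio of YL over RI 3.33). Of the 46 probe sets, 5 were of the type that can cross-hybridize with other genes, 3 matched several transcripts and 5 matched several transcripts of 1 gene by their names, so members of these families with like sequences could share signal. By locus number, 16 members (34.8%) lay on chromosomes 1 and 10, which held 21.6% of the listed probe sets with a locus number. Sequences are not shown, since the tables used here hold none.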

How the data were processed

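RNA was measured on 15 Affymetrix GeneChip Rice Genome Arrays, 1 per sample. Per the labels and methods, the authors made the deposited intensities with GCOS from scanned 1-colour arrays and scaled all arrays together in dChip, so differences in overall RNA content are not visible. The values are linear and carry no detection calls. Of 57381 probe sets, 187 controls were removed. Intensities under 1 were set to 1, log2 was taken, and 1 mean per tissue was fitted with limma 3.58.1 (lmFit, eBayes) in R 4.3.3 over all 15 arrays, with Benjamini-Hochberg adjustment over 21303 probe sets. The SAM program of the original methods was not used here. Of the probe sets, 35891 were not tested. A "fold of at least" is the geometric mean of the brighter tissues over the cutoff. Precision was limited by having 3 arrays per tissue, for which no exact test of a pair of tissues can go below p = 0.10.

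Only probe names, loci and annotations were taken from the study's lists. The members and lists were chosen with earlier results of these data known. Each test was read only for members whose list did not use the direct difference between the tissues compared. The lists of tissue-enriched genes did set their tissue against every other tissue, and the multiclass screen behind them used every array. Named were all members listed for the tips or SI, the 3 largest and the smallest YL ratios of means per family (not bounded by the cutoff), up to 4 called members per direction, hormone-related members, near neighbours by locus number (within 100), and 1 probe set sharing a probe design. *Os03g55240*, *Os06g03930*, *Os06g23560*, *Os10g38110*, *Os10g38140*, *Os10g38700* and *Os12g10730* were named after their values were seen. The platform table gave a gene symbol for 37 members and named 0 further probe sets of these families.

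Replicate numbers were not taken to pair tissues: of 30 pairs of arrays with the same number, 6 had residual correlations over 0.1 and 7 under -0.1. Alternatives were quantile normalization, median centring, cutoffs at the 90th and 99th percentile, 2 of 3 arrays above the cutoff, no filter, signals below the cutoff raised to its level, the replicate number as a block, a fit of just the arrays compared, no fold minimum, each array left out, and RI replicate 2 with SI replicate 1 left out. The exchange of tip names and the counts of single arrays with signals raised to the cutoff were chosen after seeing the data. The fitting code was tested on simulated data. Figures were drawn with matplotlib 3.10.9.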

Additional observations from a re-analysis of the deposited data

Results flagged for a closer look

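The difference of RT-labelled minus ST-labelled was set against that of RI minus SI by a contrast of the limma fit, and it passed the threshold in 3 members. For the cis-zeatin O-glucosyltransferase *Os04g47720* the difference of the differences was −2.244 (log2, SE 0.52, limma adjusted p = 0.0372), with the RT-labelled arrays below the ST-labelled ones and RI above SI. All of its tip arrays were below the cutoff, and the call was lost in 9 of 15 fits with 1 array left out and with signals under the cutoff set to it (−0.88, limma adjusted p = 0.278). For the cytokinin-O-glucosyltransferase *Os10g09990* it was 4.215 (SE 0.86, limma adjusted p = 0.0183), with SI well above RI. Of its tip arrays only RT-labelled replicate 3 (59.3) exceeded the cutoff. That call was lost without RT-labelled replicate 3 (limma adjusted p = 0.0512), ST-labelled replicate 1 (0.0505) or ST-labelled replicate 3 (0.053), and with signals under the cutoff set to it (1.73, limma adjusted p = 0.25). For the P450 *Os10g39930* it was 2.836 (SE 0.47, limma adjusted p = 0.00438), and the call held without any single array and with signals under the cutoff set to it (1.91, limma adjusted p = 0.0134). Without RI replicate 2 and SI replicate 1 the values were −2.23, 4.10 and 2.57, all called by limma.

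All 3 rest on the names of the tip arrays, and the study's tip lists peaked under the opposite names. The 3 calls hold for the labels only and are not read as a difference between rhizome and shoot. With the tip names exchanged, the values were −0.30, 2.26 and 0.52 with limma adjusted p of 0.999, 0.751 and 0.996.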

How the results depend on the processing

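Over the 29 member results given with a test, 295 of 322 values under other settings kept their direction and side of the threshold, 26 lost their call, 1 gained one and 0 reversed. These settings include RI replicate 2 and SI replicate 1 left out together. Among the 26 are 3 values with the tip names exchanged, which is another contrast and not another processing. With 1 array left out, 390 of 435 kept both, 44 lost the call, 1 gained it and 0 reversed. The count of members called between tips and internodes, 15, became 9 (27.3% beside 25.2% of all probe sets) with signals under the cutoff set to it and ran from 12 (without RT-labelled replicate 1 or ST-labelled replicate 3) to 17 (without RI replicate 1). Between RI and SI, the 2 calls became 0 with signals under the cutoff set to it (beside 1.65% of all probe sets), 0 with only the 6 arrays compared (0.582%) and 6 without RI replicate 2 and SI replicate 1 (10.5%), and ran from 0 (without RI replicate 3, 1.16%, or SI replicate 3, 1.44%) to 4 (without SI replicate 1, 3.87%). Between internodes and YL, the 3 calls became 6 without that pair of arrays (41.5%) and ran from 2 (without SI replicate 3, 35.2%, or YL replicate 1, 34.4%) to 5 (without RI replicate 2, SI replicate 1 or YL replicate 2). Between the tips the count was 0 in every fit. The causes were not tested, except that setting signals to the cutoff removes differences below it. With the replicate block the counts were 14, 2, 0 and 3, and the loss was *Os10g09990* between tips and internodes (limma adjusted p = 0.0544). Its difference of RT-labelled minus ST-labelled, set against RI minus SI, stayed called under the block, while that of *Os04g47720* did not (limma adjusted p = 0.0736).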
